A study of Mus musculus with 16 samples.

Results

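From the cAMP pathway 8 genes were followed: the phosphodiesterases Pde4a, Pde4b, Pde4d and Pde7a, the adenylyl cyclase Adcy7, and the transcription factors Creb1, Creb5 and Crem. They were taken by gene name, as 8 of the 34780 gene names on the array, and all 21 of their probes were used. Pde4b was chosen by its own values in these arrays, a smaller response to LPS in the presence of cordycepin, so its values are given as a description with no test. The other 7 belong to the same pathway and were tested.

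The cells were RAW264.7, an established mouse macrophage-like line, and RNA of whole cultures was measured on 1-colour Agilent mouse arrays. Each of 4 conditions had 4 biological replicates, 16 arrays in all, and a replicate number stood for 1 culture day. The DMSO condition received vehicle only and the cordycepin condition received 20 µM cordycepin in DMSO. The LPS+DMSO and LPS+cordycepin conditions had the same pre-treatment for 60 min and then 1 µg/ml LPS for a further 60 min, and all cultures were collected 120 min after the pre-treatment began. Cordycepin is 3′-deoxyadenosine, an adenosine analogue that inhibits polyadenylation, and LPS is the bacterial lipopolysaccharide that activates macrophages through Toll-like receptor 4. A single cell line stands for macrophages here, and an array of a whole culture cannot tell fewer expressing cells from less RNA per cell.

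Cyclic AMP is made by adenylyl cyclases downstream of Gs-coupled receptors and is degraded by phosphodiesterases, of which the PDE4 family is the main cAMP-specific one in macrophages. It activates protein kinase A, which phosphorylates CREB and its relatives at cAMP response elements of target promoters. In macrophages a high cAMP level is known to dampen the production of inflammatory cytokines, and Pde4b is known as an LPS-inducible gene.

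Between 21999 and 30362 of the 59305 spots of an array (37.1 to 51.2%) were well above background, with 21999 to 26055 on slide 1 (replicates 1 and 2) and 27151 to 30362 on slide 2 (replicates 3 and 4). No spot was saturated. Of 9 macrophage markers 8 were well above background on all 16 arrays, among them Csf1r, Adgre1, Cd68 and Itgam. Of 4 fibroblast markers and 3 epithelial markers 0 were, whereas 2 of 4 T cell markers (Cd3e and Cd4) and 2 of 3 neutrophil markers (S100a8 and Elane) were. The B cell marker Cd79a had mean levels of 5.92, 6.27, 6.32 and 8.96 in DMSO, cordycepin, LPS+DMSO and LPS+cordycepin, whereas Ms4a1, another such marker, was well above background on no array. The part of these markers in the results was not tested. All levels below are log2 signals after scaling of each array to its 75th percentile, a change is a difference of mean levels, and only 1 probe's own values are compared with each other, since different probes bind with different strength.

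The probes were 60-base oligonucleotides, and what they cover decides which transcript a level stands for. The stretches below, on the plus strand of mm9, carry the landmarks of the probes on which the results turn. The Pde4b start-codon probe (chr4:101927825-101927884) covers the start codon of 1 isoform, the Pde4b stop-codon probe (chr4:102277888-102277947) and the brightest Pde4d probe (chr13:110741493-110741552) cover the stop codon, and the downstream Creb1 probe (chr1:64651061-64651120) holds the polyadenylation hexamer. Capitals mark the start codon, the stop codons and the hexamer.

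Pde4b start-codon probe: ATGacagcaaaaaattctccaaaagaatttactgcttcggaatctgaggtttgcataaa

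Pde4b stop-codon probe: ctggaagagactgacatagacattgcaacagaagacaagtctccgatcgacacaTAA

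Pde4d brightest probe: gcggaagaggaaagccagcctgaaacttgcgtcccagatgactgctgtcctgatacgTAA

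Creb1 downstream probe: aatttcaAATAAAtggaatcataatgtg

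The hexamer AATAAA was present on the sense strand of 4 of the 21 member probes (19%), compared with 5602 of all 55681 probes (10.1%). They were the downstream Creb1 probe, a pair of 3′ Pde4b probes and 1 Pde4d probe that was too dim to be tested. On the antisense strand it was in 1 of 21 (4.76%) and in 3.74% of all probes. A match is a description of the letters and not of a site in use.

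Pde4b encodes the cAMP-specific phosphodiesterase of the PDE4 family that LPS induces in macrophages. With LPS the mean level of its brightest probe, the last 3′ probe (chr4:102279393-102279452), was 19.7-fold higher in vehicle-treated cultures and 7.73-fold higher in cordycepin-treated ones, and the LPS+cordycepin level was 0.585 times the LPS+DMSO level. Replicates 1 to 4 were at 7.23, 6.26, 6.96 and 6.59 with DMSO and at 7.35, 7.17, 7.56 and 7.26 with cordycepin. They were at 10.91, 11.04, 11.00 and 11.29 with LPS+DMSO and at 9.89, 10.27, 10.26 and 10.72 with LPS+cordycepin. All LPS arrays were thus above all unstimulated arrays, and all 4 LPS+cordycepin arrays were below the lowest LPS+DMSO array. The unstimulated groups overlapped, although the DMSO mean of 6.76 ± 0.42 (SD, n = 4) was below the cordycepin mean of 7.33 ± 0.17 and 1 of the 4 DMSO arrays was not well above background.

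On this probe the smaller response was made up of a higher start and a lower end. On the log2 scale its LPS change was 4.30 with DMSO and 2.95 with cordycepin, a difference of -1.35. That is the cordycepin change in LPS-treated cultures, -0.77, less the one in unstimulated cultures, 0.57 (the unstimulated part). Within single culture days the difference was between -1.67 and -1.14, the LPS change with DMSO between 3.68 and 4.78, and the difference between the LPS conditions between -1.02 and -0.57, so 4 of 4 days had the same direction. Within slides the difference of responses was -1.41 on slide 1 and -1.29 on slide 2. With normexp background correction, which adds an offset of 50 to each signal, it was -0.95 and the unstimulated part 0.25. On the stop-codon probe the unstimulated part was 0.20, with a higher value in 2 of 4 replicates and -0.11 on slide 1, so the higher start was not found on all probes.

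The 3 other Pde4b probes covered further parts of the gene. On the stop-codon probe replicates 1 to 4 were at 6.16, 5.73, 6.00 and 5.10 with DMSO and at 5.95, 5.72, 6.01 and 6.09 with cordycepin. They reached 9.51, 9.68, 9.61 and 9.90 with LPS+DMSO and 8.36, 8.60, 8.97 and 9.23 with LPS+cordycepin. This probe therefore had the same order of the LPS conditions with no overlap and a ratio of 0.542 between the LPS conditions. Its LPS changes on the log2 scale were 3.93 with DMSO and 2.85 with cordycepin, but only 2 of 4 DMSO and 3 of 4 cordycepin arrays were well above background, so the sizes are uncertain and no fold is given.

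The first 3′ probe of Pde4b (chr4:102275988-102276046) was not well above background on any DMSO array. With LPS+DMSO its replicates were at 7.03, 7.32, 6.89 and 6.92, at least 3.31-fold above DMSO by the bound given below. With LPS+cordycepin they were at 6.26, 6.85, 6.30 and 5.77, a ratio of 0.598, again with no overlap. The bound of a fold is the mean of the bright group against the mean floor of the arrays of the dim group. The floor is the dimmest signal still well above background on an array, or the probe's own signal where that is higher. The start-codon probe was not well above background on any of the 16 arrays, with condition means between 3.17 and 3.61, and its letters show only that this probe reports the isoform that begins there.

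**Figure D1:**
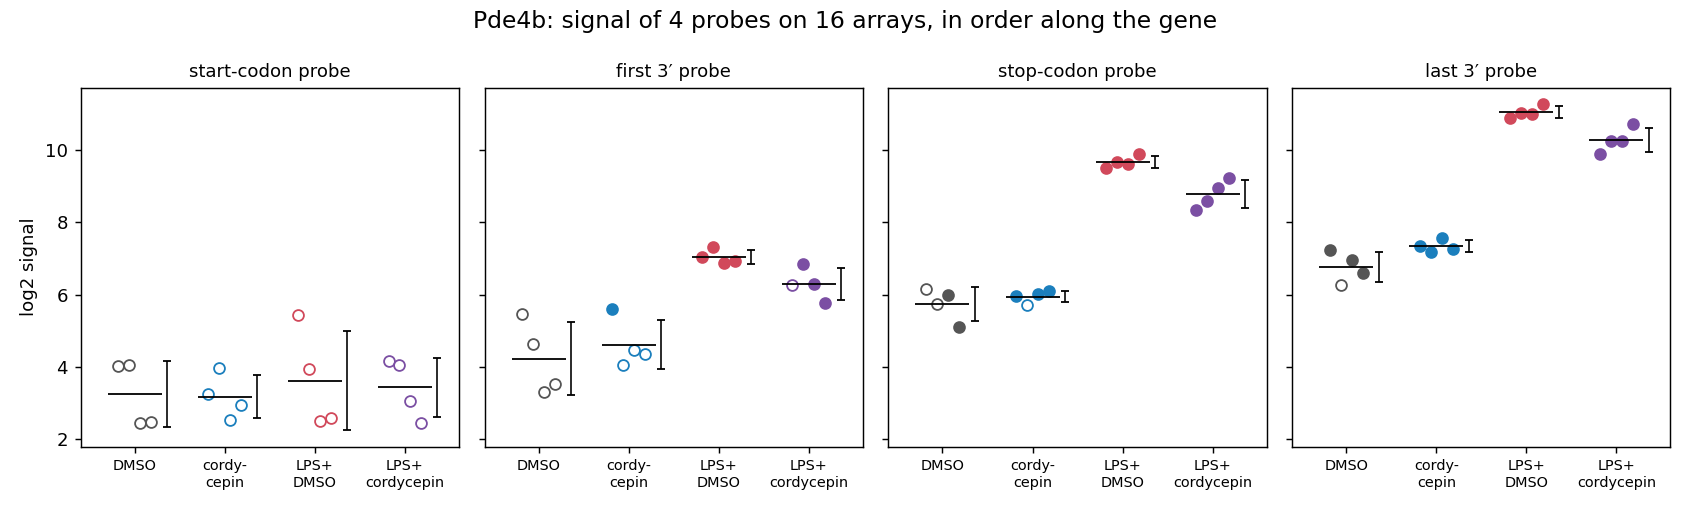
Log2 signal of the 4 Pde4b probes on each of the 16 arrays, by condition, in their order along the gene. Filled points are well above background and open points are not, a line is the mean of 4 replicates and the bar beside it the SD; on the 3 probes from the first 3′ probe onwards all LPS+cordycepin points lie below all LPS+DMSO points, and the last 3′ probe has means of 6.76, 7.33, 11.06 and 10.29.

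The genes whose 4 condition means, each gene centred on its own mean, lay nearest to those of Pde4b were found among 11649 other genes with a symbol, by the root mean square distance on the log2 scale over 4 conditions. Zc3h12a, which encodes the endoribonuclease regnase-1, was nearest at 0.16, with an LPS change of 4.70 with DMSO and 2.73 with cordycepin. Marcksl1 followed at 0.20 with 3.95 and 2.59, and Phlda1 at 0.27 with 4.60 and 3.63. Csrnp1 at 0.30 and the immediate early gene Ier2 at 0.31 had LPS changes of 3.63 and 3.47 with DMSO and of 3.19 and 3.12 with cordycepin. In all 5 the LPS+cordycepin mean was below the LPS+DMSO mean, by between -1.03 (Zc3h12a) and -0.45 (Ier2), as the choice by nearness to Pde4b requires.

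Pde7a, a cAMP-specific phosphodiesterase outside the PDE4 family, was lower with cordycepin than with DMSO in unstimulated cultures. Its tested probe (chr3:19126220-19126279) was at 8.16, 7.64, 8.12 and 8.04 with DMSO and at 7.66, 7.03, 7.63 and 7.52 with cordycepin. The fold was 0.691, a log2 change of -0.53 (SE 0.14, adjusted p = 0.0165 by limma), with a lower value in 4 of 4 replicates (by -0.62 to -0.49), although DMSO replicate 2 lay within the range of the cordycepin arrays. The change was -0.56 on slide 1 and -0.51 on slide 2. The call is near the threshold: without cordycepin replicate 2 the change was -0.39 and the adjusted p 0.0516, without DMSO replicate 1 it was 0.0538, without DMSO replicate 3 it was 0.0519, without all arrays of day 1, 3 or 4 it was 0.0782, 0.0998 or 0.0843, and with the normalized values of the authors it was 0.0566.

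With LPS the Pde7a levels were 7.86, 7.66, 7.85 and 7.88 in LPS+DMSO and 7.53, 7.43, 7.58 and 7.72 in LPS+cordycepin. Neither the LPS change of -0.18 (SE 0.14, adjusted p = 0.496) nor the change between the LPS conditions of -0.24 (SE 0.14, adjusted p = 0.305) passed the limma test. The difference between both cordycepin changes, 0.29 (SE 0.20, adjusted p = 0.879), did not pass either, so the effect is not shown to be particular to unstimulated cells. The other Pde7a probe was well above background on 2 of 16 arrays.

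Pde4a, the PDE4 family member of which both probes were well above background on all 16 arrays, passed no test. Its brightest probe (chr9:21017591-21017650) was at 10.81, 10.73, 11.07 and 11.12 with DMSO and at 10.66, 10.76, 10.86 and 10.72 with cordycepin. It was at 10.63, 10.67, 10.69 and 10.80 with LPS+DMSO and at 10.56, 10.56, 10.81 and 10.99 with LPS+cordycepin. The groups overlapped in every comparison. The LPS change was -0.23 (SE 0.11, adjusted p = 0.207), the cordycepin change -0.18 (SE 0.11, adjusted p = 0.338) and the change between the LPS conditions 0.03 (SE 0.11, adjusted p = 0.913). The second probe (chr9:21015961-21016020) changed by -0.23, -0.39 and -0.16 in the same comparisons, with adjusted p over all probes of 0.607, 0.28 and 0.731.

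Pde4d, a further PDE4 gene, was dim, and its tested probe was well above background on 3, 3, 4 and 2 of the 4 arrays of DMSO, cordycepin, LPS+DMSO and LPS+cordycepin. Replicates 1 to 4 were at 6.42, 6.16, 6.26 and 5.89 with DMSO and at 5.58, 4.89, 5.34 and 6.71 with cordycepin. With LPS they were at 6.32, 6.26, 6.16 and 6.26 (LPS+DMSO) and at 5.72, 4.85, 5.66 and 5.85 (LPS+cordycepin). The cordycepin arrays thus tended to be lower with the exception of cordycepin replicate 4, which was the highest of all 16, and the LPS conditions did not overlap. The limma changes did not pass: -0.55 (SE 0.30, adjusted p = 0.255) without LPS, -0.73 (SE 0.30, adjusted p = 0.117) with LPS, and 0.07 (SE 0.30, adjusted p = 0.941) for LPS itself.

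The Pde4d call in unstimulated cultures depended on 1 array, and the call between the LPS conditions on that array and on the processing. Without cordycepin replicate 4 the change in unstimulated cultures was -0.91 (adjusted p = 0.0109). The change between the LPS conditions stayed at -0.73 and passed as well (adjusted p = 0.0196), since that array enters there only through the spread shared by all 4 conditions. Without all arrays of day 4 the changes were -1.01 (adjusted p = 0.014) and -0.84 (adjusted p = 0.031). The change between the LPS conditions also passed with quantile normalization (-0.99, adjusted p = 0.0163), with the percentile over all probes (-0.85, adjusted p = 0.04) and with the normalized values of the authors (-0.69, adjusted p = 0.0166). However, the probe was kept for testing only through LPS+DMSO, the condition of its highest mean. A pass against LPS+DMSO is partly fixed by that choice, so no fall is concluded from these fits. The cordycepin change was -1.06 on slide 1 and -0.05 on slide 2. The 3 other Pde4d probes were well above background on 9, 8 and 7 of the 16 arrays, but in no condition on all 4, and were not tested. The last of them along the gene was at 9.01, 3.93, 4.95 and 4.28 on cordycepin replicates 1 to 4.

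Adcy7, which encodes an adenylyl cyclase found in macrophages, passed no test. Its probe (chr8:90853657-90853716) was at 12.73, 12.48, 13.02 and 12.81 with DMSO and at 12.50, 12.44, 12.85 and 12.65 with cordycepin. It was at 12.40, 12.65, 12.62 and 12.81 with LPS+DMSO and at 12.47, 12.44, 12.72 and 12.76 with LPS+cordycepin. All groups overlapped, and the changes of -0.14 with LPS, -0.15 with cordycepin and -0.03 between the LPS conditions (SE 0.13 each) had adjusted p of 0.597, 0.518 and 0.942.

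Creb1 encodes CREB, the transcription factor that protein kinase A activates, and its probes, 6428 bases apart, moved in opposite directions with cordycepin in LPS-treated cultures. The upstream probe (chr1:64644633-64644692) was well above background on all 16 arrays and stands for the gene in the tests. It was at 7.98, 8.63, 8.13 and 8.29 with DMSO, at 8.02, 7.99, 7.84 and 7.69 with cordycepin, at 8.99, 8.70, 8.76 and 9.10 with LPS+DMSO and at 7.96, 6.87, 7.91 and 8.08 with LPS+cordycepin. The LPS+DMSO arrays were the highest and overlapped neither DMSO nor LPS+cordycepin.

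By this upstream probe Creb1 fell with cordycepin in LPS-treated cultures, to 0.442 times the LPS+DMSO level (log2 change -1.18, SE 0.22, adjusted p = 0.00101 by limma, lower in 4 of 4 replicates). Without LPS+cordycepin replicate 2, which lay far below the other 3, the change was -0.90 (adjusted p = 0.000446). The change was -1.43 on slide 1 and -0.93 on slide 2. In unstimulated cultures the change of -0.37 (SE 0.22, adjusted p = 0.312) did not pass, and the difference between both changes, -0.81 (SE 0.31, adjusted p = 0.453), did not pass either.

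The LPS change of the upstream Creb1 probe was 0.63 (SE 0.22, adjusted p = 0.0723), higher in 4 of 4 replicates, and its call depended on the setting. It passed without DMSO replicate 2 (0.75, adjusted p = 0.0398) and without all arrays of day 2 (0.82, adjusted p = 0.00122). Without LPS+cordycepin replicate 2, which enters only the spread shared by all 4 conditions, it stayed at 0.63 and passed (adjusted p = 0.0053). It passed as well with quantile normalization (adjusted p = 0.0385), with the percentile over all probes (adjusted p = 0.0346) and with the values of the authors (adjusted p = 0.0284).

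The downstream Creb1 probe, whose sequence holds the AATAAA hexamer shown above, was high in every cordycepin-treated culture. It was at 4.03, 4.06, 5.10 and 4.81 with DMSO and at 8.18, 8.33, 8.46 and 8.72 with cordycepin. It was at 4.63, 4.11, 5.70 and 5.14 with LPS+DMSO and at 8.31, 8.39, 8.42 and 8.79 with LPS+cordycepin. The groups with and without cordycepin were separated by more than 2 log2 units, and the probe was well above background on 1 of 4 DMSO and 2 of 4 LPS+DMSO arrays but on all 8 arrays with cordycepin.

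In the fit over all probes the downstream Creb1 change with cordycepin was 3.92 (log2, SE 0.30) without LPS and 3.58 (SE 0.30) with LPS, higher in 4 of 4 replicates each. The probe was kept only through the cordycepin-treated conditions, where it was high, so these changes are a description with no test. Since most arrays without cordycepin were not well above background, these sizes are uncertain and no fold is given. LPS itself changed it by 0.40 (SE 0.30, adjusted p = 0.477), and the difference between both cordycepin changes was -0.34 (SE 0.42, adjusted p = 0.946). The size depended on the treatment of background: with normexp correction the changes were 1.84 and 1.92, and with the values of the authors 2.66 and 2.42. This probe was singled out after its values were seen.

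The change of the downstream probe exceeded that of the upstream probe by 4.29 with cordycepin and by 4.76 with cordycepin under LPS, and for LPS the difference was -0.23. These differences are given as a description, with no test. Averaging the probes of Creb1 turned the sign of the gene's change, to 1.20 between the LPS conditions and 1.78 in unstimulated cultures. Between the LPS conditions the upstream change of -1.18 passed and the downstream change was 3.58, which is not a test. Without LPS the upstream change did not pass.

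**Figure D2:**
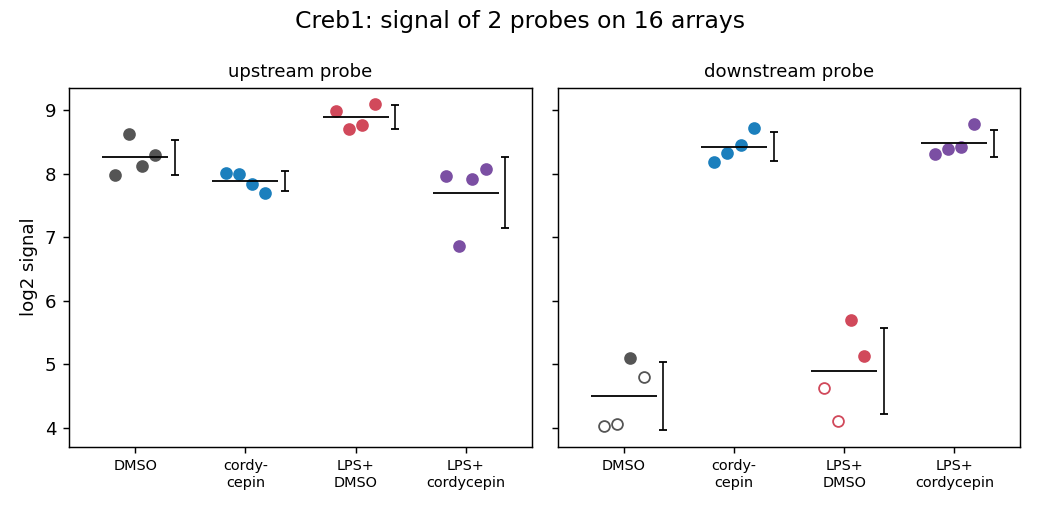
Log2 signal of the upstream and the downstream Creb1 probe on each of the 16 arrays, by condition; filled points are well above background, open points are not, a line is the mean of 4 replicates and the bar beside it the SD. The upstream probe is highest with LPS+DMSO (8.70 to 9.10), whereas the downstream probe is at 8.18 or above on all 8 arrays with cordycepin and at 5.70 or below on the 8 arrays without it.

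Crem encodes the cAMP-responsive modulator, whose short ICER isoforms repress cAMP-driven transcription. The brightest of its 4 probes was at 8.01, 8.57, 7.88 and 8.06 with DMSO and at 8.17, 8.33, 8.25 and 8.06 with cordycepin. It was at 8.37, 8.38, 8.26 and 8.34 with LPS+DMSO and at 8.20, 8.55, 8.36 and 8.19 with LPS+cordycepin. All groups overlapped and no limma test passed, with changes of 0.20 (LPS, SE 0.13, adjusted p = 0.374), 0.07 (cordycepin, adjusted p = 0.791) and -0.01 (between the LPS conditions, adjusted p = 0.975).

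The Crem levels with DMSO and LPS+DMSO overlapped through DMSO replicate 2, the highest array of the 16 on this probe. Without it the LPS change was 0.35 (adjusted p = 0.0249), and without all arrays of day 2 it was 0.34 (adjusted p = 0.0306). A second probe of Crem was at 7.03, 7.08, 7.46 and 6.85 with DMSO and at 7.45, 7.40, 7.33 and 7.31 with LPS+DMSO, a change of 0.26 (adjusted p over all probes 0.262). The remaining probes were well above background on 0 and 1 arrays.

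Creb5 encodes a bZIP factor of the CREB family. Its tested probe (chr6:53645678-53645737) was at 16.54, 17.01, 16.41 and 16.45 with DMSO and at 16.37, 16.34, 16.34 and 16.30 with cordycepin. It was at 16.64, 16.66, 16.47 and 16.65 with LPS+DMSO and at 16.41, 16.51, 16.18 and 16.35 with LPS+cordycepin. All 4 cordycepin arrays were below the lowest DMSO array, but the change of -0.26 (SE 0.12, adjusted p = 0.168) did not pass, nor did the change of -0.24 (SE 0.12, adjusted p = 0.2) between the LPS conditions. Without DMSO replicate 2 the change between the LPS conditions stayed at -0.24 and passed (adjusted p = 0.0382). That array is outside the comparison and enters only the spread shared by all 4 conditions. The LPS change was 0.00 (SE 0.12, adjusted p = 0.993), and the further probe was well above background on 0 arrays.

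**Figure D3:**
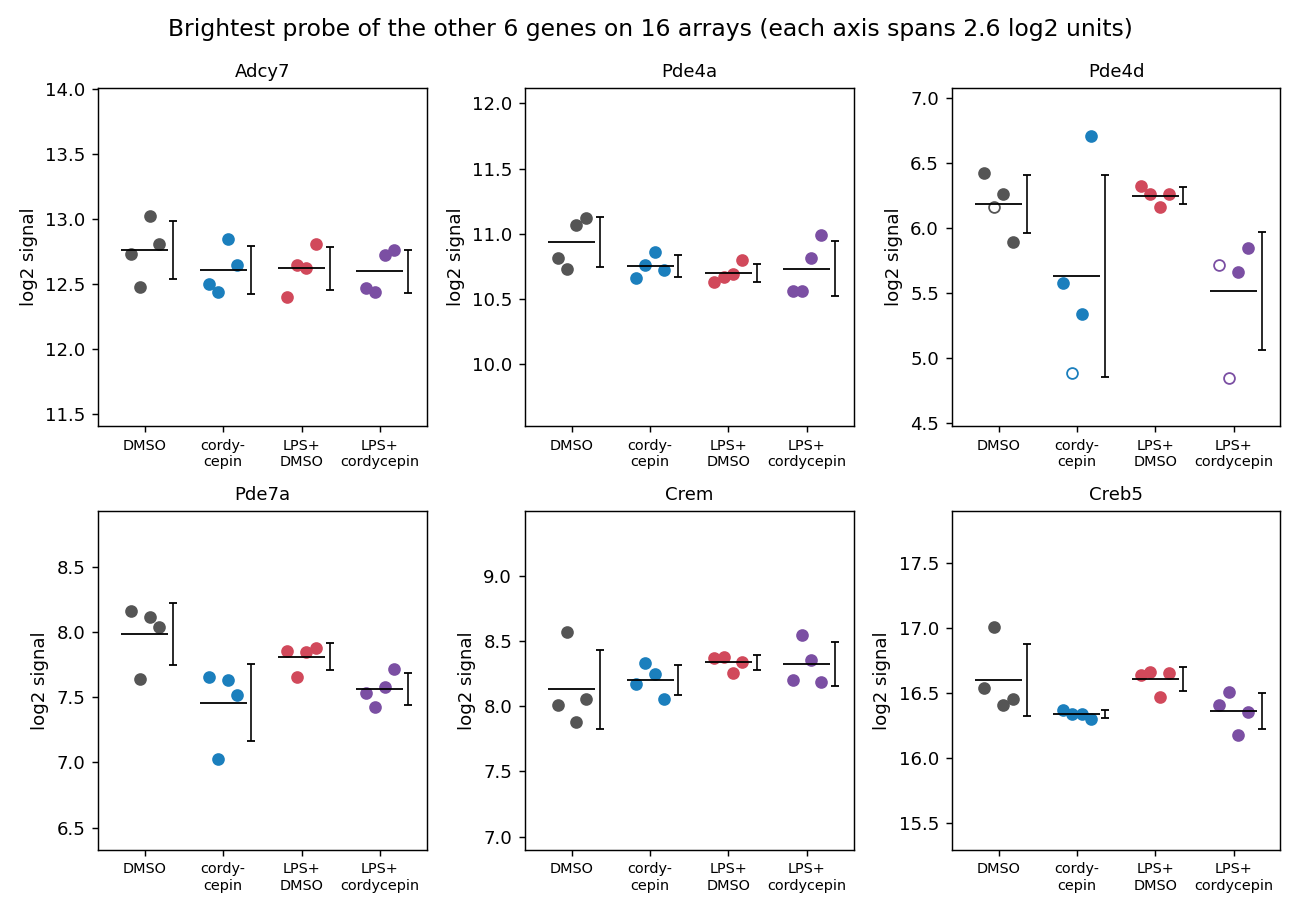
Log2 signal of the tested probe of Adcy7, Pde4a, Pde4d, Pde7a, Crem and Creb5 on each of the 16 arrays, by condition; filled points are well above background, open points are not, a line is the mean of 4 replicates and the bar the SD, and all axes span the same number of log2 units. Pde7a is lower with cordycepin than with DMSO on all 4 days, Pde4d has a cordycepin array at 6.71 above the other 15, and the groups of Adcy7 overlap throughout.

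Counted over the 7 members other than Pde4b, 0 passed the limma test for LPS, where 5.14% of all 15875 genes were higher and 9.8% lower. At an unadjusted p under 0.05 by limma 1 did (Creb1), and the univariate test of the methods also found 1. For cordycepin in unstimulated cultures 1 of 7 was lower (Pde7a) and 0 higher, against 7.57% lower and 8.21% higher among all genes. Between the LPS conditions 1 of 7 was lower (Creb1) and 0 higher, against 8.47% lower and 10.7% higher. For the difference of the LPS responses 0 of 7 passed, against 0.271% lower and 0.283% higher, and 1 had an unadjusted p under 0.05 (Creb1).

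The median changes of the 7 were 0.00 for LPS, -0.26 for cordycepin, -0.24 between the LPS conditions and 0.02 for the difference of responses, beside -0.04, 0.04, 0.03 and 0.00 over all genes. The counts turn on the settings named above, since Creb1 with LPS, Pde7a with cordycepin and Pde4d between the LPS conditions each lay near the threshold.

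**Figure D4:**
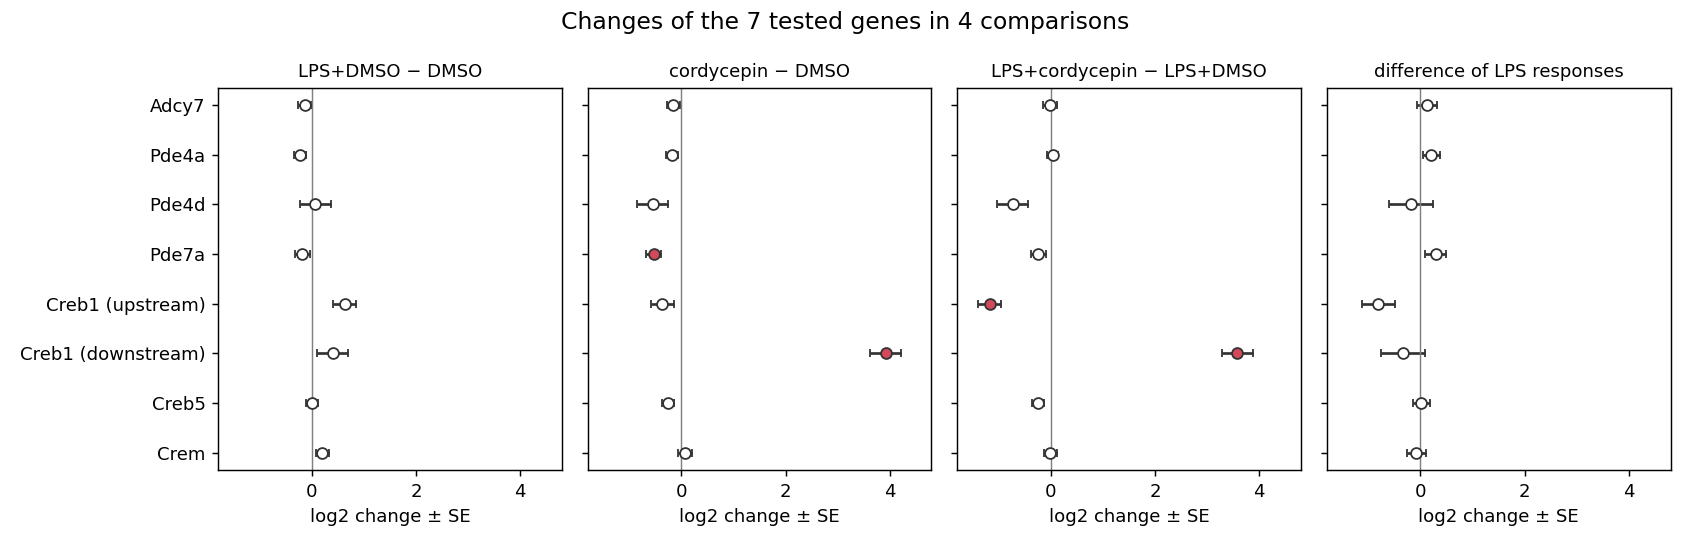
Log2 change (x axis) with its SE for the tested probe of the 7 members other than Pde4b, and for the downstream Creb1 probe, in 4 comparisons; red marks an adjusted p under 0.05. Pde7a is red with cordycepin at -0.53. Between the LPS conditions the Creb1 probes lie on opposite sides of 0, at -1.18 and 3.58. The downstream probe was kept only through its cordycepin-treated arrays, so its red marks are not a test.

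Other genes of the pathway were taken from a list of 106 by role, of which 69 had a probe bright enough to be tested. For LPS 13 of the 69 were higher and 5 lower, for cordycepin 3 were higher and 14 lower, and between the LPS conditions 5 were higher and 13 lower. These counts include genes kept only through the conditions where they were high, among them Egr1, Fos, Gnal and Creb3l2. The median changes were 0.02, -0.05 and -0.07, beside the medians of all genes given above, and the background shares are those given for the members. Scaling to the spiked-in controls gave 11, 1 and 6 calls.

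The genes higher with LPS were mostly known CREB targets, of which 12 of the 19 listed were tested. Of these 11 rose and 0 fell, with a median change of 3.25. A gene bright only with LPS was kept through that brightness, so the count and the median favour induced targets. Cited2, at 0.53 (adjusted p = 0.13), was the target that did not pass. Egr1, an immediate early zinc-finger factor, was not well above background on any DMSO array and rose at least 13.3-fold (log2 4.82, SE 0.26). The orphan nuclear receptor Nr4a1 rose by 4.68 (SE 0.17, adjusted p = 3.71e-11) and the AP-1 subunit Fos by 4.67 (SE 0.14), the latter well above background on 2 of 4 DMSO arrays. Egr1 and Fos were kept only through their LPS-treated arrays, so their changes are given with no test. Junb (4.66), the MAP kinase phosphatase Dusp1 (4.11), Atf3 (3.13), Fosb (2.79) and Gem (2.72) rose with them, and most of these genes have other inducers than CREB.

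Outside the targets, LPS raised Rgs1, a regulator of G protein signalling, by 1.70 and the CREB coactivator Crtc2 by 0.33. Pde8b, a cAMP-specific phosphodiesterase, changed by -1.56 (SE 0.10, adjusted p = 3.37e-08). It was the only one to pass of 10 other Pde-named genes tested, not all of which encode enzymes that degrade cAMP. The CREB-like gene Crebl2 changed by -0.87 (SE 0.14, adjusted p = 0.000476) and Crebzf, a bZIP factor, by -0.51 (SE 0.12, adjusted p = 0.00904). Of 5 receptors, 3 adenylyl cyclases and 2 Rap1 genes (Rap1a and Rap1b, the GTPases that the cAMP sensor Epac activates) 0 passed for LPS by limma, and Ptgir (a receptor) and Rap1b had an unadjusted p under 0.05.

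With cordycepin in unstimulated cultures 5 of 13 genes in the CREB family and coactivator group fell and 0 rose. Among all genes 7.57% fell and 8.21% rose. The group also holds the kinases Sik2, which fell, and Sik3, which did not pass. Creb3l2, an endoplasmic reticulum-bound CREB relative, changed by -1.36 (SE 0.31). It was kept only through the conditions without cordycepin, where it was higher, so its change is given with no test. The 5 that fell include it. Sik2, a kinase that restrains CREB coactivators, changed by -1.18 (SE 0.12, adjusted p = 3.42e-06). The Sik2 probes differed among themselves, and their mean changed by -0.69 (adjusted p = 0.0616). Of the CREB targets 4 fell, namely Atf3 at -0.99 (SE 0.15, adjusted p = 0.000211), Dusp1, Per1 and Gem, and Nr4a2 rose by 1.01 (SE 0.14, adjusted p = 0.000124).

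Between the LPS conditions Atf3, a stress-induced repressor of inflammatory genes, changed by -2.01 (SE 0.15, adjusted p = 1.3e-07), Rgs1 by -1.68 (SE 0.17, adjusted p = 2.52e-06) and Rgs2 by -1.49 (SE 0.15, adjusted p = 3.28e-06). The mean of the Rgs2 probes changed by -0.30 (adjusted p = 0.267), so the Rgs2 change is that of its brightest probe. Of the CREB targets 5 of 12 were lower with cordycepin (Atf3, Dusp1, Nr4a1, Per1 and Gem) and 1 higher (Nr4a2, 0.87, SE 0.14, adjusted p = 0.000346), whereas Fos, Egr1 and Junb did not pass.

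Higher with cordycepin in both settings were Gnal, the olfactory type G protein alpha subunit, and the kinase anchor Akap8. Gnal was not well above background on any array without cordycepin. It was at least 2.38-fold higher without LPS and at least 2.03-fold higher with LPS (3 of 4 LPS+cordycepin arrays well above background). Gnal was kept only through the cordycepin condition, where it was high, so its changes are given with no test. With normexp correction its log2 change without LPS was 0.91. Akap8 rose by 0.39 (SE 0.09, adjusted p = 0.00501) and 0.37 (SE 0.09, adjusted p = 0.00592). Both calls were lost with spiked-in controls and without all arrays of day 1 (adjusted p by limma 0.0613 without LPS and 0.0589 with LPS). The call without LPS was also lost with the adjusted univariate test (0.0504). The call with LPS was also lost by limma without all arrays of day 4 (0.07) and with the percentile over all probes (0.0575).

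The difference of the LPS responses passed for 1 of the 69, Atf3, whose mean level was 13.04 with DMSO, 12.05 with cordycepin, 16.17 with LPS+DMSO and 14.16 with LPS+cordycepin. Its LPS response was smaller by -1.02 with cordycepin (SE 0.21, adjusted p = 0.0479). With the culture day as a replicate block the adjusted p was 0.0178 and 2 of the 69 passed (Atf3 and Rgs2). The call was near the threshold: it was lost with scaling to the median (0.0501), with the percentile over all probes (0.0511) and with the values of the authors (0.052), and of the 16 fits without 1 array it passed only without DMSO replicate 2 (0.0014) or LPS+cordycepin replicate 2 (0.0456).

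**Figure D5:**
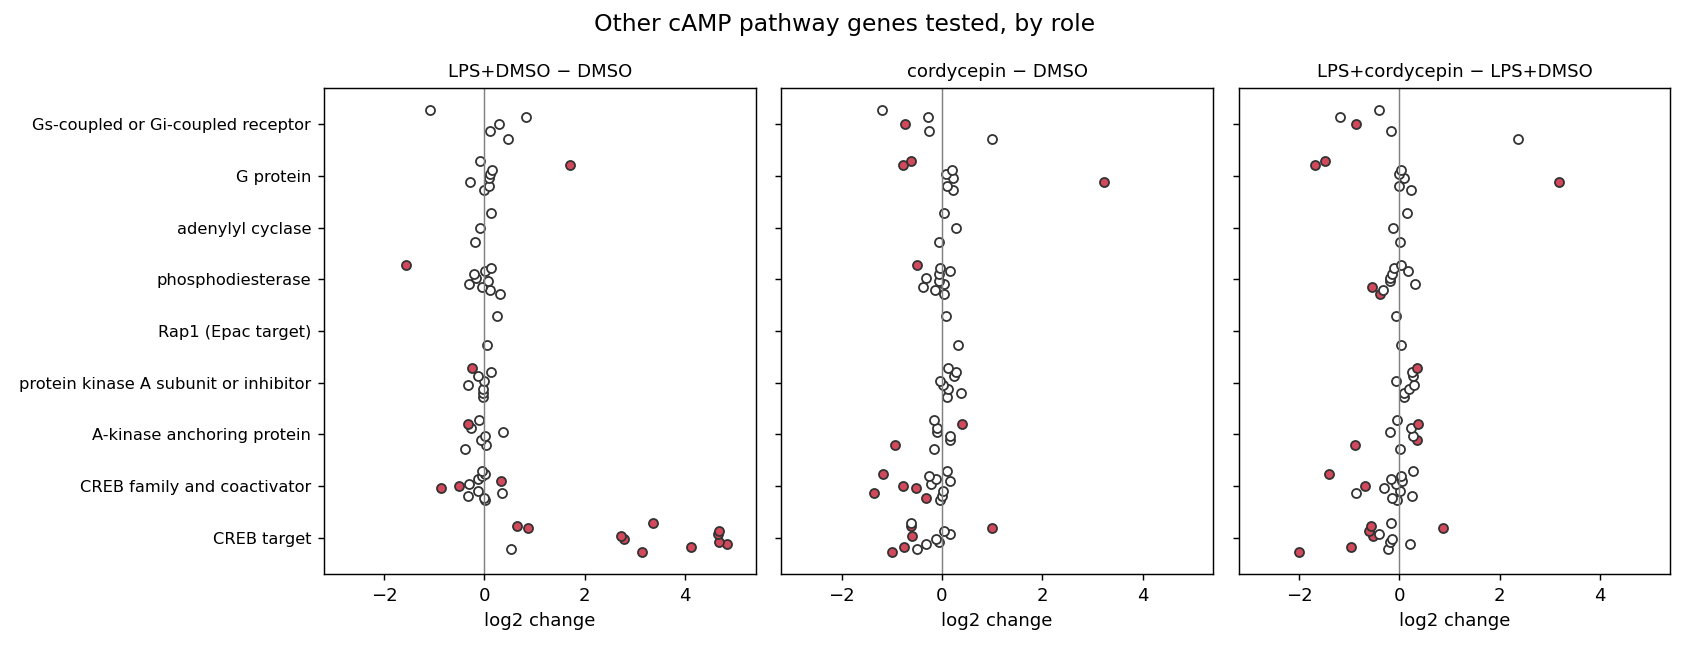
Log2 change of the 69 other cAMP pathway genes tested, by role, for LPS, for cordycepin and for cordycepin under LPS. Each point is 1 gene and red marks an adjusted p under 0.05. The red marks of genes kept only through the conditions where they were high, such as Egr1, Fos, Gnal and Creb3l2, are not a test. The CREB targets lie to the right for LPS (11 of 12 higher) and mostly below 0 with cordycepin (medians -0.40 and -0.32), where Atf3 is the lowest under LPS at -2.01, and the adenylyl cyclases and Rap1 genes have no red point.

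The full cAMP response element, TGACGTCA (the same on both strands), was searched in the promoters of RefSeq, build GRCm38.p6, from 250 bases before to 50 bases after the start of each gene. It was in 1 of the 6 members with a promoter in that table (16.7%), Creb5, and in 3 of 15 CREB targets of the list (20.0%), Dusp1, Areg and Ppp1r15a, compared with 549 of 27025 genes (2.03%). Absence of these letters from the window says nothing about CREB at the other members.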

How the data were processed

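RNA of 16 RAW264.7 cultures was hybridised to 1-colour arrays by the authors, who obtained spot intensities with Agilent Feature Extraction 10.10.1.1 (background and spatial trend subtracted, not normalised between arrays). Their deposited table of log2 values, made by the authors, is normalised between arrays (r 0.995 to 0.998 with the scanner values), and its method is not given in the sources used here. It served as an alternative.

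The deposited intensities were log2-transformed without outlier spots, averaged per probe and set relative to the 75th percentile of each array over the 18057 probes that no array showed at background. Probes counted as measured if some condition had them above background in all 4 replicates, which left 21591 of 55681 probes (13 of 21 member probes, at least 1 for each of the 8 members), and the brightest stood for its gene. A fit of the 4 condition means used limma 3.58.1 in R 4.3.3, with Benjamini-Hochberg adjustment over 15875 genes, or over all measured probes for further probes of a member. A gene passed at an adjusted p under 0.05, with no minimum fold. Comparisons that share control arrays are not independent. Only 4 arrays per condition limit the precision.

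The members and the pathway list were chosen with earlier results of these data known. Named were all members, up to 3 pathway genes per direction and comparison with the largest change among those past the test and moved alike in all 4 replicates, and the 5 genes nearest to Pde4b. Other genes were named after their values were seen. The labels give each replicate number a day. Arrays of the same number correlated in their deviations from the condition means (mean r 0.20, from -0.06 to 0.44, 20 of 24 pairs over 0.1), as did other arrays of the same slide (0.18). Arrays of different slides did not (-0.19). Probe positions are those of the files (mm9). A pair of probes under an older name of a member was not used. The script was tested on simulated data. The alternatives are given in the closing section. One marker gene is not reported here.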

Additional observations from a re-analysis of the deposited data

Results flagged for a closer look

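In 3 of 52 groups of 4 arrays (5.8%) the gap of 1 array to its nearest neighbour took up more of the range than Dixon's critical value allows, which chance alone does in about 1 of 20 groups. LPS+cordycepin replicate 2 of the upstream Creb1 probe was at 6.87 with the nearest array at 7.91 (0.863 of the range). LPS+DMSO replicate 3 of Creb5 was at 16.47 with the nearest at 16.64 (0.865 of the range), and LPS+DMSO replicate 2 of Pde7a was at 7.66 with the nearest at 7.85 (0.889 of the range).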

How the results depend on the processing

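The 4 arrays per condition and the dimness of Pde4d and of unstimulated Pde4b limit these values, and causes of the shifts below were not tested. Of the 7 tested members 1 passed for LPS (0 in the report) with quantile normalization, the percentile over all probes, the values of the authors, a fit of only the groups compared and the unadjusted univariate test of the methods. Between the LPS conditions 3 passed with quantile normalization, 2 with the percentile over all probes, the values of the authors or only the groups compared, and 4 with the unadjusted univariate test. For cordycepin 2 passed with the mean of a gene's probes and 0 with spiked-in controls, normexp, the values of the authors, no filter on dim probes, only the groups compared, the adjusted univariate test, a 2-fold minimum or an adjusted p under 0.01. Leaving out arrays or days gave 0 to 2 (LPS), 1 to 2 (LPS conditions) and 0 to 2 (cordycepin). Of the pathway genes 11, 1 and 6 passed for LPS, cordycepin and the LPS conditions with spiked-in controls, which moved the medians of all genes to -0.13, 0.10 and -0.12, and 11, 4 and 5 at 2-fold. For cordycepin 11 passed with the adjusted univariate test and 9 to 18 with arrays left out. The difference of responses passed for 0 with the median, the percentile over all probes, spiked-in controls, the values of the authors, no filter, every probe on its own or an adjusted p under 0.01, for 0 to 2 with arrays left out and for 2 with the replicate block, which changed no other call.

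The LPS change of Pde4b was 3.34 with normexp, 3.73 with the values of the authors and 3.68 with the mean of its probes. With cordycepin it was 2.64 (spiked-in controls), 2.39 (normexp), 2.65 (authors) and 2.49 (mean of probes). With normexp its cordycepin change was 0.25 and the difference of responses -0.95.

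The signs that turned were those of changes that had not passed, except for the mean of the Creb1 probes (1.20 between the LPS conditions and 1.78 for cordycepin). That mean includes the downstream probe, which was kept only through its cordycepin-treated arrays. Between the LPS conditions Pde4a was at -0.09 (percentile over all probes), -0.12 (spiked-in controls) and -0.06 (mean of probes), and Crem at 0.05 (normexp) and 0.00 (median). For LPS Creb5 was at -0.03 (quantile), -0.09 (spiked-in controls) and -0.07 (authors), and Pde4d at -0.06 (normexp) and -0.03 (spiked-in controls). For cordycepin Crem was at -0.03 (quantile) and -0.04 (mean of probes). The difference of responses was 0.00, -0.04 and -0.20 for Creb5 (median, percentile over all probes, spiked-in controls), 0.00 for Pde4a and -0.09 for Adcy7 (spiked-in controls), and 0.04 for Crem, 0.15 for Pde4d and 0.08 for the downstream Creb1 probe, whose alternatives were chosen after seeing the data (normexp). With arrays left out the ranges were -0.10 to 0.04 (Adcy7, LPS conditions), -0.06 to 0.14 (Creb5, LPS), -0.15 to 0.10 (Creb5, difference of responses), -0.08 to 0.04, -0.03 to 0.22 and -0.24 to 0.00 (Crem, LPS conditions, cordycepin and difference), -0.06 to 0.09 (Pde4a, LPS conditions), and -0.03 to 0.14 and -0.43 to 0.18 (Pde4d, LPS and difference).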
